A study of Mus musculus with 26 samples.

Results

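The genes described here encode subunits of the pyruvate dehydrogenase complex and enzymes that switch it off and on. They are the kinase genes Pdk1, Pdk2, Pdk3 and Pdk4, the phosphatase genes Pdp1 and Pdp2, and the subunit genes Pdha1, Pdhb, Dlat and Pdhx, which makes 10 of the 19505 genes with a symbol on the array. They were chosen by symbol, and each had 1 probe set. Pdk4 was picked because its value was higher in HMB-fed tumors, so its values for that diet are given as a description, with no test. The other 9 genes are further subunits and regulators, not the whole set. Dld and Pdpr were counted with the partners of the complex.

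Pyruvate dehydrogenase sits in the mitochondrial matrix and converts pyruvate from glycolysis into acetyl-CoA for the tricarboxylic acid cycle. The PDK enzymes phosphorylate its E1 alpha subunit and stop the reaction, and the PDP phosphatases remove the phosphate and restore it. Skeletal muscle and fat make PDK4 during fasting, when the tissue burns fatty acids and spares glucose.

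Gene expression was measured in 26 subcutaneous tumors of Panc02, a mouse pancreatic ductal adenocarcinoma cell line, with 1 array of whole-tumor RNA per tumor. All mice were male C57BL/6, were injected with Panc02 cells under the skin and ate the AIN-93G diet; their age is not in the sample labels. The control group (6 tumors) had that diet without a supplement, the HMB group (7 tumors) had it with beta-hydroxy-beta-methylbutyrate (HMB), a leucine metabolite, from 1 week before the injection, the anti-PD1 group (6 tumors) was given 200 µg of an antibody against the T cell receptor PD-1 every 3 days, and the anti-PD1 + HMB group (7 tumors) had both. By the study's methods, the mice without anti-PD1 were injected with an isotype control antibody on the same schedule. The tumors grew from 1 transplanted cell line, so the host supplied every other cell type in them, and RNA of muscle or fat cut out with a tumor enters its value. A note on the design of the series gives other group sizes than the sample titles, and the titles were used.

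Array values are the deposited ones, whose log scale was read as base 2, so a difference of 1 is a doubling. Levels of different genes are not compared, because each probe set binds its target with its own strength. Of the probe sets whose names mark them as negative controls, 5222 in number, 95% lay below 11.06 on the median array. This level is called the background level. What these control probe sets match was not checked. The group means of Pdk1, Pdp1, Pdha1, Pdhb and Dlat were above the background level in all 4 groups. Those of the other 5 genes were below it, so their low values may lie at background. Of all 19505 genes, 4168 had a mean above that level. Array medians ran from 6.97 to 7.11, and the medians of the negative-control probe sets from 6.96 to 7.26. The epithelial keratins Krt8 and Krt18 were above the background level in 26 of 26 tumors, Cdh1 in 14 and Krt7 in 10, but Epcam, Krt19 and Muc1 were above it in 1 tumor each and Cldn4, Cldn7 and Esrp1 in 0.

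The starts of the genes with the largest differences are shown for both sides of the switch, the kinase gene Pdk4 and the phosphatase gene Pdp2. Each sequence runs from 250 bases before to 50 bases after the transcription start (RefSeq, GRCm38.p6), and capitals mark matches to the motifs searched.
Pdk4, chr6:5496229-5496528, minus strand: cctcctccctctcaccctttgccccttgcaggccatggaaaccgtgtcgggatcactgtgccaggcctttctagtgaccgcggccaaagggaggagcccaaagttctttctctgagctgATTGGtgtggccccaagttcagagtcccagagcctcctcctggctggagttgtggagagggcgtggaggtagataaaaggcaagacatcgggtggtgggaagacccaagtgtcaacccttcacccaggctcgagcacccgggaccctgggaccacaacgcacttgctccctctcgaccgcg
Pdp2, chr8:104591222-104591521, plus strand: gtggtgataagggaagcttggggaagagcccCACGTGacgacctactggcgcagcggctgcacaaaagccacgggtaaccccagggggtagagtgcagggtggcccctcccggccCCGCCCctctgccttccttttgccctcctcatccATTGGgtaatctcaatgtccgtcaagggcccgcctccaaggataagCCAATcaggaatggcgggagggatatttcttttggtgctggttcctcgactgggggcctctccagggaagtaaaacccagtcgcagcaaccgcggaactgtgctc

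The motifs were searched on both strands. CCAAT, the box bound by NF-Y, occurs 1 time near Pdk4 and 2 times near Pdp2, and in 37.4% of the 32544 mouse windows of this length. GGGCGG, the GC box of Sp factors, occurs 1 time near Pdp2 and in 35.9% of all windows. ACGTG, the core of the hypoxia response element, is found 2 times near Pdp2, where the matches overlap on opposite strands, and in 19.7% of all windows. AGGTCA, the core site of nuclear receptors such as the PPARs, GTAAACA, the forkhead site, and TATAAA have matches in 0 of the 11 windows of the 9 members that have one, and in 16.2%, 3.66% and 13.6% of all windows. A match or its absence describes these letters only. No window was available for Pdp1.

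Pdk4 was the member with the widest spread. In the control group it ran from 3.71 to 4.98 with a median of 4.03, and in the anti-PD1 group from 3.38 to 4.82 with a median of 3.83. In the HMB group the lowest value was 4.28, the median 7.46 and the highest 11.31, and in the anti-PD1 + HMB group these were 3.76, 5.96 and 10.89. Of the 14 HMB-fed tumors, 10 lay above the highest of the other 12, and the remaining 4 lay among them, so the groups overlapped. Group means were 7.11 ± 2.57 with HMB (SD, n = 7), 6.95 ± 2.76 with anti-PD1 + HMB (SD, n = 7), 4.14 ± 0.44 in control (SD, n = 6) and 3.92 ± 0.48 with anti-PD1 (SD, n = 6). Of the neighbours in that order, only anti-PD1 + HMB and control were further apart than their pooled SD, by 2.81. Over all 26 tumors the SD of Pdk4 was 2.42, wider than that of 99.8% of genes.

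The HMB difference of Pdk4 was 2.97 (SE 1.03) against control and 3.03 (SE 1.03) on top of anti-PD1, and the difference between these was 0.06 (SE 1.46). Averaged over both antibody states it was 3.00 (SE 0.73). Anti-PD1 was not used to pick Pdk4. Its difference for Pdk4 was -0.22 (SE 1.07) against control, with an adjusted p of 0.986 in limma, and -0.16 (SE 0.99) on top of HMB, with an adjusted p of 0.981. These SEs come from 1 spread shared by all 4 groups. Pdk4 spread more in the HMB-fed groups (SD 2.57 and 2.76) than in control (0.44) and anti-PD1 (0.48). The exact permutation p was 0.418 against control and 0.915 on top of HMB, without adjustment.

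**Figure D1:**
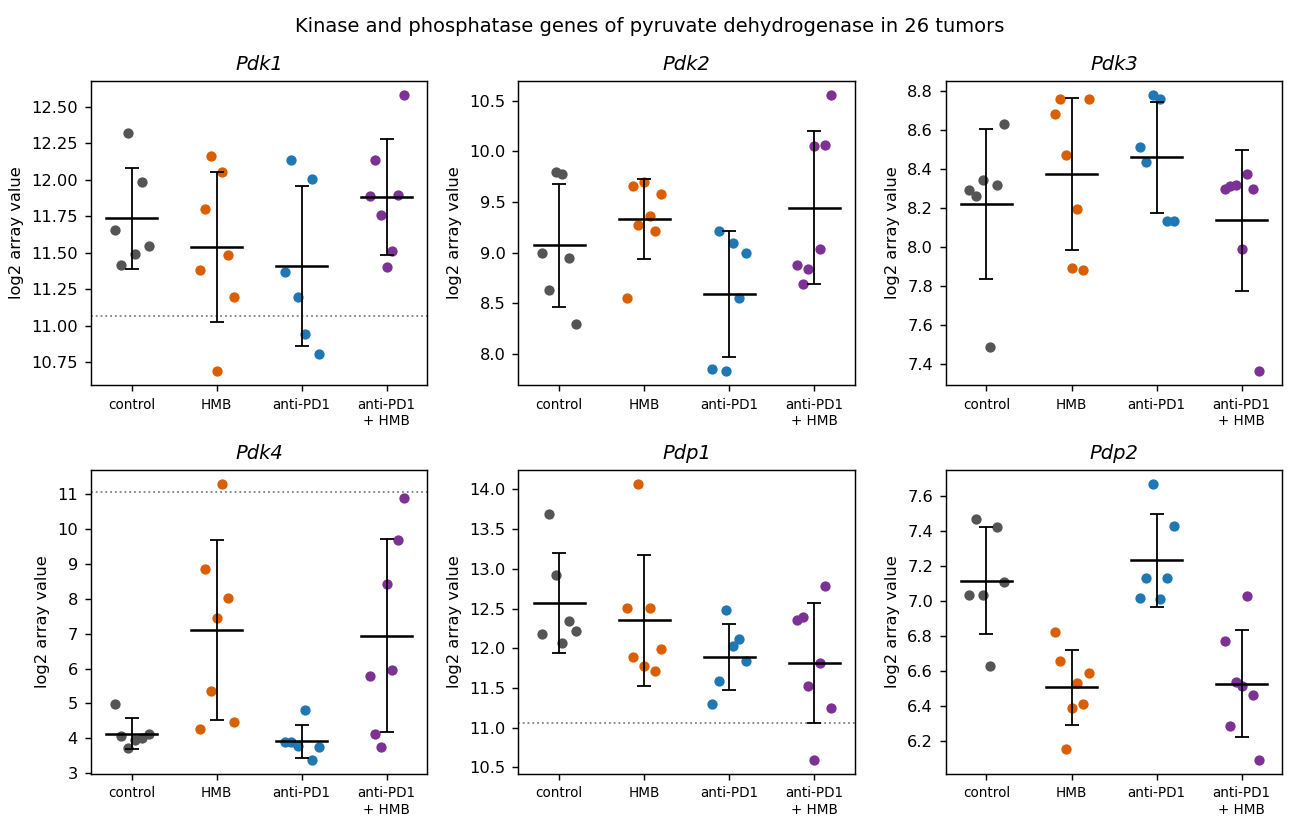
Array values (log2) of the 4 kinase and 2 phosphatase genes by group, 1 point per tumor, with the group mean as a line, the SD as a bar and the background level of 11.06 as a dotted line where it falls in the panel. Pdk4 is at 4.98 or below in the 12 tumors without HMB and reaches 11.31 with it, and Pdp2 is at 7.03 or below in the 14 HMB-fed tumors.

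The tumors highest in Pdk4 were also those highest in markers of skeletal muscle or of fat. For each tissue a score was taken as the mean of its marker genes' log2 values, each gene centred on its mean over all tumors, with 36 of 36 muscle markers and 14 of 16 adipocyte markers measured. The highest Pdk4 value, 11.31 in HMB tumor 5, came with the highest muscle score of 5.38 and an adipocyte score of -1.12. The next, 10.89 in anti-PD1 + HMB tumor 7, came with a muscle score of -0.82 and the highest adipocyte score, 5.81. Muscle scores of 4.77 and 3.60 went with Pdk4 values of 8.41 and 9.68 in anti-PD1 + HMB tumors 4 and 6, and adipocyte scores of 4.18, 2.79 and 3.08 with 8.87, 8.01 and 7.46 in HMB tumors 2, 6 and 4. At the other end, the 4 HMB-fed tumors that lay within the range of those without HMB had Pdk4 values of 4.46, 4.28, 4.11 and 3.76, with muscle scores of 1.04, -1.15, 0.15 and -1.14 and adipocyte scores of -1.28, -1.01, -1.89 and -2.16. The first of these, HMB tumor 7, had a low Pdk4 value beside a muscle score above that of every tumor without HMB.

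**Figure D2:**
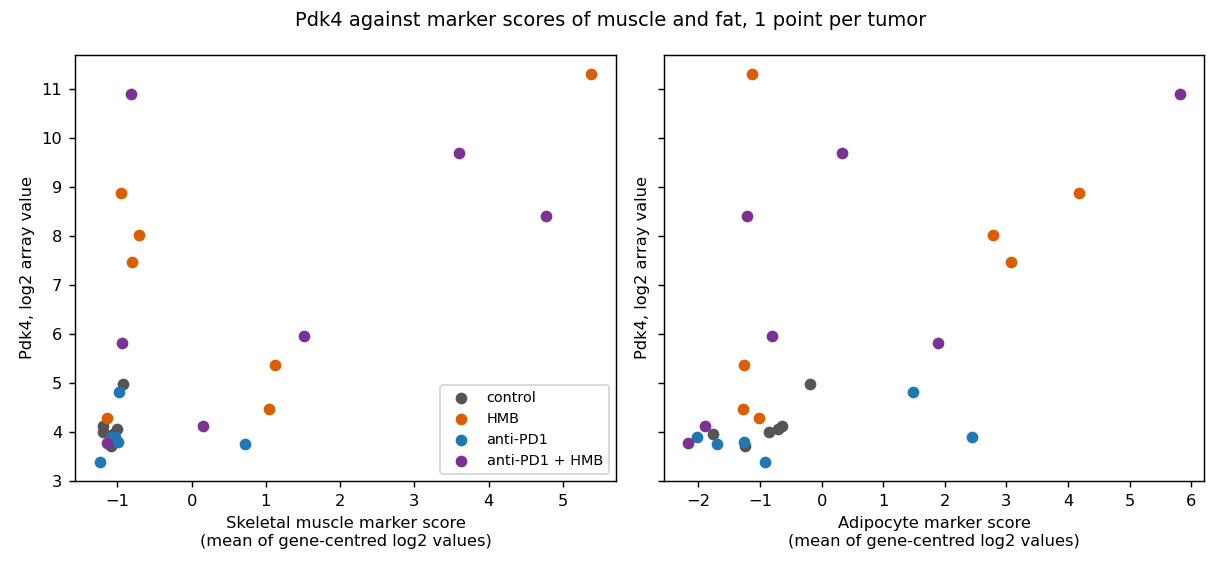
Pdk4 (log2 array value) against the skeletal muscle score on the left and the adipocyte score on the right, 1 point per tumor, coloured by group. HMB-fed tumors spread along both axes, up to scores of 5.38 and 5.81, while the other tumors stop at 0.71 and 2.44 and stay at a Pdk4 value of 4.98 or below.

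Within the 14 HMB-fed tumors, Pdk4 was higher by 0.97 (SE 0.11) per unit of muscle score and by 0.94 (SE 0.10) per unit of adipocyte score when both were fitted together, and the scores took up 91.8% of its variance. In the 12 other tumors the slopes were 0.00 (SE 0.27) and 0.14 (SE 0.10), with 17.8% of the variance. These 12 covered a narrower range, with muscle scores of -1.24 to 0.71 and adipocyte scores of -2.02 to 2.44. Anti-PD1 tumors 1 and 4 had adipocyte scores of 2.44 and 1.48 with Pdk4 values of 3.89 and 4.82, while anti-PD1 + HMB tumor 1 had 1.88 and a Pdk4 value of 5.80. The slopes are descriptions and their difference was not tested.

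The marker lists themselves had higher means with HMB, in 36 of 36 muscle markers (median difference 1.51) and 14 of 14 adipocyte markers (1.03). Of these, 25 and 2 had an unadjusted p below 0.05 in limma, against 2.19% of all genes higher at that p. After adjustment the counts were 0 and 0. The summed log2 level of the muscle markers ran from 157 to 167 in control, 159 to 394 with HMB, 156 to 226 with anti-PD1 and 159 to 372 with both. For the adipocyte markers these ranges were 74.8 to 96.9, 81.4 to 158, 71.1 to 134 and 69.1 to 181. In the same order, median muscle scores were -1.07, -0.71, -1.01 and 0.15. Median adipocyte scores were -0.78, -1.01, -1.08 and -0.80, so the higher adipocyte means came from part of the HMB-fed tumors. With the muscle score as a covariate the HMB difference of Pdk4 was 2.13 (SE 0.75), with the adipocyte score 2.43 (SE 0.65), and with both 0.58 (SE 0.41). Without the 4 tumors highest in muscle markers it was 2.25 (SE 0.68), and without these and the 2 highest in B cell markers, which also had the highest adipocyte scores, 1.21 (SE 0.43). In bulk tissue, more cells of a type and more RNA per cell cannot be told apart, and whether Pdk4 RNA came from muscle and fat was not tested.

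**Figure D3:**
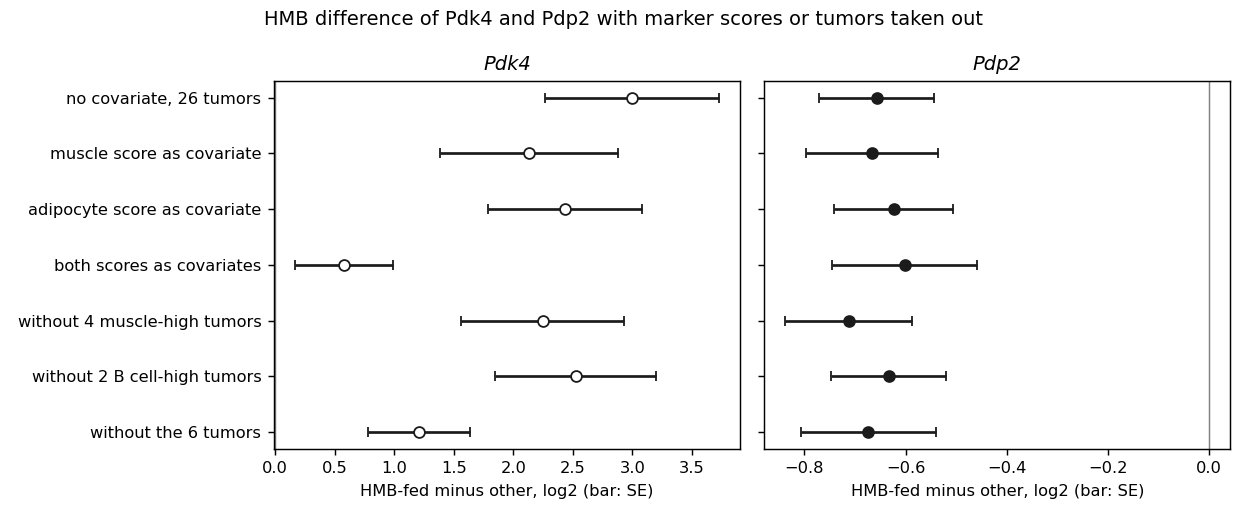
Log2 difference between HMB-fed and other tumors for Pdk4 on the left (open points, no test) and Pdp2 on the right, with SE bars, without a covariate, with marker scores as covariates and with tumors left out. The Pdk4 difference of 3.00 is 0.58 with both scores, and the Pdp2 difference of -0.66 is -0.60, each with slopes shared by all tumors.

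Relations of Pdk4 with 9 marker scores were tested on values centred within groups, over 26 tumors, with 100000 permutations. The muscle score had r = 0.45 and rho = 0.21 (p = 0.111 and 0.434, adjusted over the 9 scores 0.200 and 0.558). Without the 2 tumors of the most extreme score r was 0.16, so this r depended on those. It does not take the adipocyte score into account. The adipocyte score had r = 0.54 and rho = 0.59 (p = 0.0309 and 0.0122, adjusted 0.0928 and 0.0551), with r = 0.34 without the 2 extremes. The macrophage score ran the other way, with r = -0.68 and rho = -0.59 (p = 0.00139 and 0.00580, adjusted 0.0125 and 0.0522), and r = -0.45 without its 2 extremes. The endothelial score had r = 0.50 and rho = 0.41 (p = 0.00983 and 0.0353, adjusted 0.0442 and 0.106), with r = 0.40 without 2 tumors. The other 5 adjusted p-values of r were from 0.162 for B cells to 0.803 for T cells, epithelium and erythroid cells.

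The genes most like Pdk4 over the 26 tumors were Tmem182 (r = 0.91), a muscle membrane protein, Ucp3 (0.88), a mitochondrial carrier of muscle and brown fat, and Cox8b (0.87), the muscle form of a cytochrome oxidase subunit. Ndrg2 and the small heat shock protein gene Hspb1 (both 0.86), the glycogen-targeting subunit gene Ppp1r3c (0.84), Fhl1 (0.84), a LIM protein of muscle, and Prkaa2 (0.82), which encodes an AMPK catalytic subunit, came next. On values centred within groups, the first 6 were the same and Cacna1h and Fhl1 (both 0.78) followed.

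Pdp2, one of the phosphatase genes that reverse the kinases, had lower values in HMB-fed tumors in both antibody states, short of the threshold after adjustment over all genes. It ran from 6.63 to 7.47 in control (median 7.08) and from 7.01 to 7.67 with anti-PD1 (median 7.13). With HMB it ran from 6.15 to 6.82 (median 6.53), and with both from 6.09 to 7.03 (median 6.52). All 14 HMB-fed tumors were below the mean of the other 12, 10 of them below the lowest other tumor, and 9 of the other 12 were above the highest HMB-fed tumor, which leaves an overlap between control tumor 4 at 6.63 and anti-PD1 + HMB tumor 5 at 7.03. Group means were 7.23 ± 0.26 with anti-PD1 (SD, n = 6), 7.12 ± 0.31 in control (SD, n = 6), 6.53 ± 0.31 with anti-PD1 + HMB (SD, n = 7) and 6.51 ± 0.22 with HMB (SD, n = 7), and only the step of 0.59 from control to anti-PD1 + HMB exceeded the pooled SD.

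The HMB difference of Pdp2 averaged over both antibody states was -0.66 (SE 0.11, 95% interval -0.89 to -0.43), with an unadjusted p of 4.09e-06, the smallest of all 19505 genes, and an adjusted p of 0.0798 in limma, above the threshold of 0.05. It was -0.61 (SE 0.16) against control, with an adjusted p of 0.656, and -0.71 (SE 0.16) on top of anti-PD1, with an adjusted p of 0.999. The difference between these was -0.10 (SE 0.23, adjusted p 0.976). Over the alternatives the adjusted p of the averaged difference ran from 0.0197 to 0.99998, the latter with both marker scores as covariates, where the difference was still -0.60 (SE 0.14). It passed the threshold with quantile normalization (0.0474), with array weights (0.0449), and without either control tumor 4 (0.0197) or anti-PD1 + HMB tumor 5 (0.0212).

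Muscle and adipocyte scores together took up 5.77% of the variance of Pdp2 within groups, against 81.5% for Pdk4. The level of Pdp2 lay amid the negative-control probe sets, 40.1% to 52.2% of which were below its group means. The medians of those probe sets averaged 7.11 in control, 7.08 with HMB, 7.13 with anti-PD1 and 7.11 with both. For anti-PD1, Pdp2 differed by 0.07 (SE 0.11) averaged over both diets, with an adjusted p of 0.911. The genes most like it within groups were Ankk1 (r = 0.77), Ints10 (0.68) and Sult3a1 (0.67).

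Pdp1, the other phosphatase gene, was above the background level in 25 of 26 tumors. It ran from 12.06 to 13.69 in control (median 12.28), 11.71 to 14.07 with HMB (median 11.99), 11.30 to 12.48 with anti-PD1 (median 11.93) and 10.59 to 12.78 with both (median 11.81). The groups overlapped, and the highest values were HMB tumor 3 at 14.07 and control tumor 2 at 13.69. The order of the means was control (12.57 ± 0.63), HMB (12.35 ± 0.83), anti-PD1 (11.89 ± 0.41) and anti-PD1 + HMB (11.81 ± 0.76; SD, n = 6, 7, 6 and 7), and no step exceeded the pooled SD. Anti-PD1-treated tumors differed by -0.61 (SE 0.26) over both diets, with an unadjusted p of 0.0258, an adjusted p of 0.468 in limma and a two-sided exact permutation p of 0.0250 within diets. Against control the difference was -0.68 (SE 0.38, adjusted p 0.868, exact p 0.0433), and on top of HMB -0.54 (SE 0.35, adjusted p 0.697, exact p 0.244). These are among 30 such exact tests, 3 for each gene, and their p-values were not adjusted. The T cell markers were higher with anti-PD1 in 8 of 8 genes. Their score had r = -0.38 (rho = -0.36) with Pdp1 within groups, the largest r in size of the 9 marker scores. The adipocyte score had r = -0.30 (rho = -0.39), the epithelial score 0.29 (rho = 0.36) and the endothelial score -0.28 (rho = -0.33). The part of any score in the difference was not tested. For HMB the difference of Pdp1 was -0.15 (SE 0.26, adjusted p 0.958). Peak1 (r = 0.87), Slc35d2 and Pik3r1 (both 0.79) were most like it.

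Pdk2, a kinase gene active in most tissues, ran from 8.29 to 9.80 in control (median 8.97), 8.55 to 9.70 with HMB (median 9.36), 7.83 to 9.21 with anti-PD1 (median 8.78) and 8.69 to 10.56 with both (median 9.04). The 3 tumors above 10 were anti-PD1 + HMB tumors 4, 6 and 7, with muscle scores of 4.77 and 3.60 and an adipocyte score of 5.81, and the groups overlapped. Means were 9.44 ± 0.75 with both, 9.33 ± 0.39 with HMB, 9.07 ± 0.61 in control and 8.59 ± 0.62 with anti-PD1 (SD, n = 7, 7, 6 and 6), and no step exceeded the pooled SD. HMB-fed tumors differed by 0.56 (SE 0.23) over both antibody states, with an unadjusted p of 0.0213 and an adjusted p of 0.911 in limma, and by 0.85 (SE 0.32, adjusted p 0.999) on top of anti-PD1. The averaged difference was 0.17 (adjusted p 0.99998) with both marker scores as covariates and 0.20 without the 6 tumors highest in muscle or B cell markers. Vmn2r26 (r = 0.77), Ypel3 (0.76) and Rbm38 (0.75) were most like Pdk2.

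Pdk1, the kinase gene that hypoxia-inducible factor switches on, ran from 11.42 to 12.32 in control (median 11.60), 10.69 to 12.16 with HMB (median 11.48), 10.81 to 12.13 with anti-PD1 (median 11.28) and 11.40 to 12.58 with both (median 11.89). The groups overlapped, and the means, 11.74 ± 0.35, 11.54 ± 0.52, 11.41 ± 0.55 and 11.88 ± 0.40 (SD, n = 6, 7, 6 and 7), were within a pooled SD of their neighbours. The averaged differences were 0.14 (SE 0.18, adjusted p 0.944) for HMB and 0.01 (SE 0.18, adjusted p 0.994) for anti-PD1. The HMB difference was -0.20 (SE 0.25) against control and 0.47 (SE 0.25) on top of anti-PD1, and their difference of 0.67 (SE 0.35) had an adjusted p of 0.889. Genes most like Pdk1 were Ccng2 (r = 0.83), Zfp592 (0.79) and Kdm4b (0.78).

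Pdk3, an X-linked kinase gene, ran from 7.49 to 8.63 in control (median 8.31), 7.88 to 8.76 with HMB (median 8.47), 8.13 to 8.78 with anti-PD1 (median 8.48) and 7.37 to 8.38 with both (median 8.30). The groups overlapped, and its means of 8.22 ± 0.38, 8.38 ± 0.39, 8.46 ± 0.29 and 8.14 ± 0.36 (SD, n = 6, 7, 6 and 7) were within a pooled SD of each neighbour. The averaged differences were -0.08 (SE 0.14, adjusted p 0.957) for HMB and 0.00 (SE 0.14, adjusted p 0.998) for anti-PD1. The HMB difference on top of anti-PD1 was 0.48 lower than that against control (-0.48, SE 0.28, adjusted p 0.889). Pkhd1 (r = 0.80), Clec5a (0.79) and Tmx1 (0.79) were most like it.

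Of the subunit genes, 2 were steady. Pdhb (the E1 beta subunit) and Dlat (the E2 acetyltransferase) had SDs of 0.24 and 0.24 over all tumors, smaller than those of all but 8.71% and 8.60% of genes, where the median gene had 0.38. Pdha1, the E1 alpha subunit that the kinases phosphorylate, had 0.35, and Pdhx, which anchors the E3 subunit, 0.41, wider than the 0.36 of the kinase gene Pdk3.

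Pdha1 ran from 11.73 to 12.69 in control, 11.82 to 12.61 with HMB, 11.63 to 12.52 with anti-PD1 and 11.42 to 12.79 with both, with medians of 12.25, 12.24, 11.86 and 12.23. Pdhb ran from 13.40 to 14.05, 13.62 to 14.22, 13.41 to 13.99 and 13.48 to 14.46 in the same order, with medians of 13.74, 13.91, 13.67 and 13.84. All groups overlapped in both genes, and the highest tumor in both was anti-PD1 + HMB tumor 7. Dlat ran from 11.77 to 12.65, 11.78 to 12.65, 11.91 to 12.55 and 12.09 to 12.59, with medians of 12.24, 12.37, 12.30 and 12.26. Pdhx ran from 8.06 to 8.71, 7.69 to 8.99, 7.69 to 8.75 and 7.32 to 8.81, with medians of 8.47, 8.41, 7.96 and 8.53. In these genes too every group overlapped the others, and in all 4 subunit genes no group mean differed from the next in order by more than the pooled SD.

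**Figure D4:**
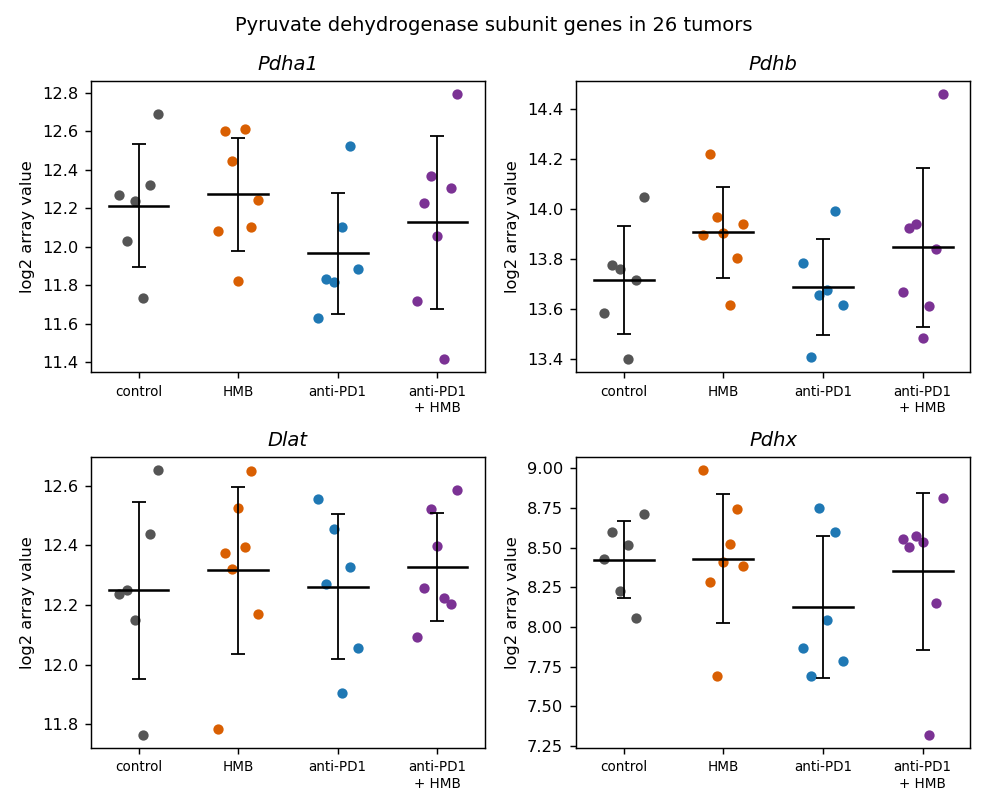
Array values (log2) of the 4 subunit genes by group, 1 point per tumor, with the group mean as a line and the SD as a bar; the vertical scales differ between panels. The groups overlap in every panel, and the range over all tumors is widest for Pdhx, from 7.32 to 8.99.

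For HMB averaged over both antibody states the differences were 0.11 (SE 0.14, adjusted p 0.943) for Pdha1, 0.18 (SE 0.10, adjusted p 0.911) for Pdhb, 0.07 (SE 0.11, adjusted p 0.956) for Dlat and 0.12 (SE 0.16, adjusted p 0.9496) for Pdhx. For anti-PD1 averaged over both diets they were -0.20 (SE 0.14), -0.04 (SE 0.10), 0.01 (SE 0.11) and -0.19 (SE 0.16), with adjusted p from 0.733 to 0.987. The 95% intervals of the HMB differences reached from -0.18 to 0.40 for Pdha1, -0.03 to 0.38 for Pdhb, -0.15 to 0.28 for Dlat and -0.21 to 0.45 for Pdhx. Most like the subunit genes within groups were Olfr1052 (r = 0.83), Dipk1a and Stag2 for Pdha1, Ankrd44 (0.84), Fnbp1 and Celf2 for Pdhb, Rock1 (0.67), Ddx21 and H2ap for Dlat, and Sdr16c5 (0.61), Cplx4 and Chd1 for Pdhx.

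Over the members together, 0 of the 9 tested genes had an adjusted p below 0.05 in limma for HMB averaged over both antibody states, and neither did any of the 19505 genes (0%). At an unadjusted p below 0.05 there were 2 of 9, Pdk2 and Pdp2, against 5.03% of all genes. For anti-PD1 averaged over both diets the counts were 0 of 10 adjusted (0% of all genes) and 1 of 10 unadjusted, Pdp1, against 8.98%. In the comparisons between groups, unadjusted counts were 1 of 9 for HMB against control (6.93% of all genes), 0 of 10 for anti-PD1 against control (6%), 2 of 9 for anti-PD1 + HMB against control (8.13%), 2 of 9 against anti-PD1 (4.18%) and 0 of 10 against HMB (8.8%), with 0 adjusted in each, in limma and with the methods' t-test alike. For the difference between the HMB differences with and without the antibody it was 0 of 9 (5.57%). No member separated any of these 5 pairs of groups without overlap, which 0.179%, 0.41%, 0.2%, 0.0513% and 0.0718% of all genes did. With Pdk4 left out, 6 members were higher and 3 lower with HMB, with a median difference of 0.11 against -0.01 over all genes, and with anti-PD1 3 were higher and 7 lower, with a median of -0.11 against -0.01. The labels name no animals or extractions beyond 1 tumor per array, so the p-values measure the spread between these tumors only.

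**Figure D5:**
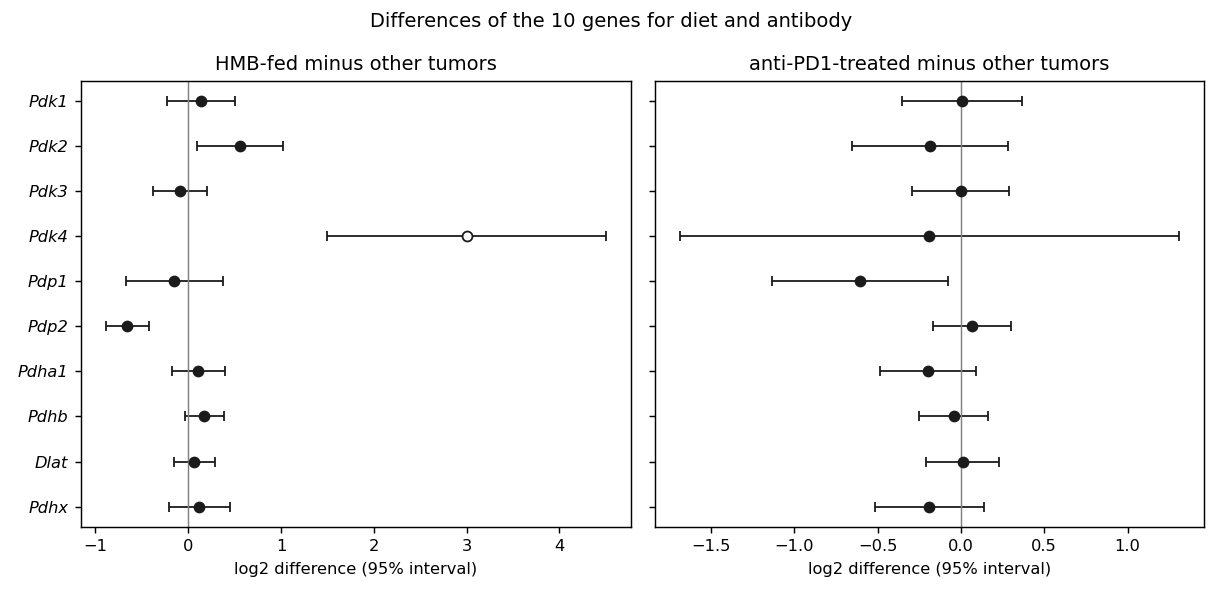
Log2 differences of the 10 genes with 95% intervals, HMB-fed minus other tumors averaged over both antibody states on the left and anti-PD1-treated minus other tumors averaged over both diets on the right. The open point is Pdk4, whose HMB difference of 3.00 is a description and whose interval there is not a test. Of the 9 genes tested for HMB, Pdp2 at -0.66 and Pdk2 at 0.56 have an interval that leaves out 0.

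Within groups, Pdha1 and Pdhb, which together form E1, ran together with r = 0.66 over 26 tumors, and Pdhb was at place 49 among all genes by likeness to Pdha1. Pdk2 and Pdk4 had r = 0.55 and Pdk1 and Pdha1 0.55, while Pdk2 ran against Pdk3 (-0.52) and Pdp2 (-0.47). Over the 45 pairs of members the median r was 0.06. These values share tumors and tissue content and are given without a test.

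The pathway around the complex showed no call after adjustment in limma in any of 6 gene lists for either treatment, and at an unadjusted p below 0.05 the lists held 0, 0, 1, 5, 1 and 0 genes higher with HMB, in the order partners, pyruvate, cycle, fasting, glucocorticoid and hypoxia, against 2.19% of all genes, and 0 lower. Among 14 partners of the complex and its relatives, 8 were higher and 6 lower with HMB (median 0.01), and the smallest p-values were those of Dbt (-0.20), the E2 of the branched-chain complex, its E1 alpha gene Bckdha (0.24) and its kinase Bckdk (0.11). Among 16 measured genes that supply or use pyruvate, 9 were higher and 7 lower (median 0.04), led by the pyruvate carboxylase gene Pcx (0.78, SE 0.42), Pck1 (1.92, SE 1.095) and the pyruvate carrier gene Mpc1 (0.21). Of 17 tricarboxylic acid cycle genes 14 were higher and 3 lower (median 0.11), led by Sdha (0.27, SE 0.12, unadjusted p 0.0301), Idh3g (0.20) and Suclg2 (0.18). Of 23 hypoxia and glycolysis genes 11 were higher and 12 lower (median -0.01), led by Egln1, Adm and Egln3 with unadjusted p from 0.122 to 0.251. Over all 19505 genes, 9105 were higher and 10400 lower with HMB.

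Of 26 measured genes tied to PPAR receptors or fasting, 22 were higher with HMB (median 0.17), against 9105 of all 19505 genes. The list was not one of induced genes only, since it held the receptor genes Ppara, Pparg and Rxra themselves. At an unadjusted p below 0.05 in limma 5 of the 26 were higher, against 2.19% of all genes, and 0 at an adjusted one. Those with the smallest p were Cpt1b, which muscle uses to bring fatty acids into mitochondria (0.90, SE 0.18, adjusted p 0.332), Ucp3 (1.16, SE 0.42, adjusted p 0.911) and Lpin1 (0.65, SE 0.25, adjusted p 0.911). Of 14 genes tied to glucocorticoids, among them the receptor gene Nr3c1, 13 were higher and 1 lower (median 0.24), with 1 higher at an unadjusted p below 0.05. The smallest p-values were those of Zbtb16 (1.19, SE 0.57), Klf9 (0.58) and Cdkn1a (0.38). With both the muscle and the adipocyte score as covariates, these differences were 0.58 for Cpt1b, -0.10 for Ucp3, 0.29 for Lpin1, 0.15 for Zbtb16, 0.14 for Klf9 and 0.23 for Cdkn1a, and those of the pyruvate genes Pcx and Pck1 were 0.46 and 0.67.

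With anti-PD1 the counts higher and lower were 6 and 8 for the partners, 9 and 7 for pyruvate, 8 and 9 for the cycle, 8 and 18 for PPAR and fasting genes, 9 and 5 for glucocorticoid genes and 15 and 8 for hypoxia and glycolysis. Of all 19505 genes, 9336 were higher and 10169 lower. In the same order, 0, 0, 0, 1, 0 and 2 genes were higher at an unadjusted p below 0.05 in limma. Lower at that p were 0, 0, 1, 1, 0 and 0, against 8.98% of all genes in either direction. The smallest unadjusted p-values in these lists were 0.0118 for Acadm, a fatty acid oxidation gene (-0.38), 0.0145 for Acot1 (0.35), 0.0167 for the hexokinase gene Hk1 (0.24), 0.0200 for the glycolysis regulator Pfkfb3 (0.74) and 0.0377 for Suclg2 (-0.24), and their adjusted p ran from 0.369 to 0.516. In the other lists Fdx1 (-0.25), Lipt1 and Lipt2 came first among the partners, Gpt2 (-0.63), Me1 (-0.55) and Me2 among pyruvate genes, and Fkbp5 (-0.67), Ddit4 and Dusp1 among glucocorticoid genes. Idh3g and Idh2, Ppargc1b and Ndrg1 completed the cycle, fasting and hypoxia lists' leading 3.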

How the data were processed

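Total RNA of 26 tumors was hybridized to Clariom S arrays, 1 per tumor. The authors deposited log-transformed values, 1 for each probe set in each tumor. Neither the base of the log nor the normalization was stated in the sources used here, so the values the authors deposited were treated as log2 values and not normalized again. Symbols were taken from the platform listing, with 19505 genes, the probe set with the highest mean kept for the 55 genes with several, and 0 value columns left unmapped. Genes were compared with limma 3.58.1 in R 4.3.3, with 1 mean per group over 26 tumors, 8 comparisons and Benjamini-Hochberg adjustment over 19505 genes at 0.05. Exact permutation tests used every split of the tumors within diets. Correlations used 100000 permutations (numpy 2.4.6) on values centred on group means. The precision is limited by the number of arrays, and the labels name no batch.

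The members and lists were chosen with earlier results of these data known. Named genes were the 10 members, in each of 6 pathway lists the 3 genes of smallest p for HMB and the 3 for anti-PD1, the 8 genes most like Pdk4 and the 3 most like each other member. Alternatives were 13 for the fits and 2 for the correlations, and 3 further ones, which left out tumors high in B cell or muscle markers, were chosen after seeing the data. The fit was tested on simulated data.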

Additional observations from a re-analysis of the deposited data

Results flagged for a closer look

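In each group the highest and lowest tumor of each gene was compared with its nearest neighbour, and in 6 of 40 sets of values the gap was a large part of the whole range, where chance gives about 1 in 20. Pdk2 was lowest in HMB tumor 1 at 8.55, with the next tumor at 9.22. Pdk3 was lowest in control tumor 4 at 7.49 (next 8.26) and in anti-PD1 + HMB tumor 7 at 7.37 (next 7.99). Pdk4 was highest in control tumor 1 at 4.98 (next 4.11) and in anti-PD1 tumor 4 at 4.82 (next 3.89). Pdp1 was highest in HMB tumor 3 at 14.07 (next 12.51).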

How the results depend on the processing

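No member passed an adjusted p of 0.05 in any of the 8 comparisons, and this held under each alternative run except for HMB averaged over both antibody states, where quantile normalization and array weights each gave 1 (Pdp2) and leaving out 1 tumor at a time gave 0 to 1. Fits of the genes above the background level gave no value for Pdk2, Pdk3, Pdk4, Pdp2 and Pdhx. Ucp3, at 1.16 for HMB, was at -0.10 with both scores as covariates. The other turns of sign were of differences near 0. For HMB these were Pdk3 at 0.047, Pdp1 at 0.018 and Dlat at -0.0059 with both scores, without the 6 tumors highest in B cell or muscle markers Pdp1 at 0.020, and with array weights Dlat at -0.00038. For anti-PD1 they were Pdk1 at -0.028 and Dlat at -0.0054 with array weights, Pdk1 at -0.028, Pdk3 at 0.095 and Dlat at -0.0060 without the 2 tumors highest in B cell markers, Pdk3 at 0.00084, 0.00064 and 0.015 with the muscle score, the adipocyte score and both, Pdk3 at 0.105 without the 6 tumors, and Pdhb at 0.0081 without the 4 highest in muscle markers. On top of HMB, Pdk4 was at 0.083 with the adipocyte score. With 1 tumor left out, anti-PD1 differences ran from -0.064 to 0.068 for Pdk1, -0.075 to 0.063 for Pdk3, -0.52 to 0.16 for Pdk4 and -0.037 to 0.051 for Dlat, and from -0.82 to 0.54 for Pdk4 on top of HMB. The T cell score had rho = -0.079 with Pdk4 where r was 0.084, and by rho the macrophage and endothelial scores no longer passed (adjusted p 0.0522 and 0.106).

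The cause of these turns was not tested. The group means of Pdk2, Pdk3, Pdk4, Pdp2 and Pdhx were below the background level, and the arrays were 14 HMB-fed and 12 other. The replicate numbers in the titles were not taken as pairs. The median correlation was -0.01 for same-numbered tumors and -0.0019 for tumors of different number. Of these pairs, 12 of 37 and 53 of 216 were above 0.1. Whether same-numbered tumors were handled together cannot be told from these values. With the number as a replicate block the HMB difference was -0.63 for Pdp2 (adjusted p 0.592) and 2.89 for Pdk4, and 0 members were called in each comparison.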
